A study of Homo sapiens with 34 samples.

Results

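The genes described here act in homologous recombination, in the Fanconi pathway and in mismatch repair, together with the checkpoint kinases that report DNA damage and the polymerase of a mutagenic end-joining route. They were chosen by name, with earlier results of these data known. Of 45 names given, 44 were genes listed in all 6 comparisons and 1, *MRE11A*, is an older name of *MRE11* and stood in no table. The 44 genes were among 13307 listed in all 6 comparisons and 17587 listed in any. RNA-seq was run on the B-ALL cell lines BV-173 (labelled BCR-ABL), NALM-6 (ETV6-PDGFRB) and RS4;11 (MLL-AF4), each after knockdown of cyclin D3 or inhibition of the kinases that cyclin D3 activates. For the knockdown, cells carried shRNA against *CCND3* or a scrambled shRNA in a lentiviral vector with TagRFP and were sorted on day 4 after transduction. For the inhibitor, cells were kept with 1 µM palbociclib, an inhibitor of CDK4 and CDK6, or with DMSO for 3 days. The 12 groups held 34 samples, with 3 samples each except for 2 in NALM-6 with *CCND3* shRNA and 2 in BV-173 with DMSO. Libraries were made from mRNA enriched with oligo-dT. The 2 treatments had separate controls and different times.

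Homologous recombination repairs broken DNA by copying an intact sister chromatid, so it serves cells that have replicated their DNA. The Fanconi pathway marks and unhooks crosslinks between DNA strands, and mismatch repair removes copying errors behind the replication fork. Precursor B cells cut and rejoin their immunoglobulin genes by end joining, a separate route, and divide rapidly between rounds of rearrangement.

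Each comparison gave 1 level per gene for the treated group and 1 for its control, scaled by the authors within that pair. Values are therefore compared within a comparison, as the log2 ratio of treated to control, where a negative value is a lower level in treated cells. No level per sample was available, so no spread between replicates could be given and no test was run. A gene at least 1.5-fold lower or higher (a log2 ratio of about 0.58 in size, or more) was counted, beside the percent of all listed genes past the same fold. The ratios of barely detected genes lie closer to 0 than those of others: their SD was 0.11 to 0.41 over genes with a mean level under 1, and 0.35 to 0.97 over genes between 100 and 1000. How the group levels were made beyond scaling is not stated, and the printed ratios may be smaller in size than those of unadjusted levels. All 44 genes lay above that low range, with control levels from 65.4 upward.

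*CCND3* itself was measured first. With *CCND3* shRNA and scrambled shRNA its levels were 4727 and 19499 in NALM-6, 3353 and 16178 in RS4;11, and 2060 and 6619 in BV-173. In palbociclib and DMSO cells the levels were 21960 and 28149 in NALM-6, 14267 and 17431 in RS4;11, and 5674 and 7466 in BV-173. The shRNA left 24.2%, 20.7% and 31.1% of the control level for NALM-6, RS4;11 and BV-173, and palbociclib left 78.0%, 81.8% and 76.0%, so the target was low in the 3 knockdown groups and within 1.5-fold of DMSO with the inhibitor. The lines were also checked against cell markers. Markers of precursor B cells were listed in all 6 comparisons. Over the 12 groups, with levels scaled within each comparison, *PAX5* stood at 7880 to 17673 and *EBF1* at 2962 to 7087, both transcription factors of the lineage. *CD79A*, of the B cell receptor, stood at 1870 to 21607, and the surrogate light chain genes *VPREB1* and *IGLL1* at 2244 to 6830 and 5425 to 21121. *MME* stood near 0 in RS4;11 (2.53 with scrambled shRNA and 3.98 with DMSO) and was the most abundant of these in NALM-6. T cell markers summed to at most 7.70 and erythroid markers to at most 1.22 in any group. Myeloid markers summed to 88.4 to 559.6, with *CSF1R* or *LYZ* the most abundant. Within a comparison the sum differed most in BV-173, at 557.0 with palbociclib and 199.9 with DMSO, where *CSF1R* stood at 513.2 and 144.7.

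Most of the repair genes were lower in treated cells in every line and with both treatments. With *CCND3* shRNA, 29 of 44 (65.9%) were at least 1.5-fold lower in NALM-6, where 8.47% of all listed genes were. In RS4;11 the count was 31 of 44 (70.5%), beside 9.72% of all genes. In BV-173 it was 23 of 44 (52.3%), beside 4.78%. Palbociclib gave counts of 33 of 44 (75.0%) in NALM-6, beside 14.9% of all genes, and 35 of 44 (79.5%) in RS4;11, beside 15.0%. In BV-173 it was 33 of 44 (75.0%), beside 11.9%. The share of repair genes past the fold was thus several times that of all listed genes in each comparison. Only 1 value in the other direction passed the fold: *ATM* in RS4;11 with *CCND3* shRNA. The percent of all genes at least 1.5-fold higher was 7.82, 9.73 and 3.32 with *CCND3* shRNA for NALM-6, RS4;11 and BV-173, and 21.4, 16.7 and 13.6 with palbociclib.

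**Figure D1:**
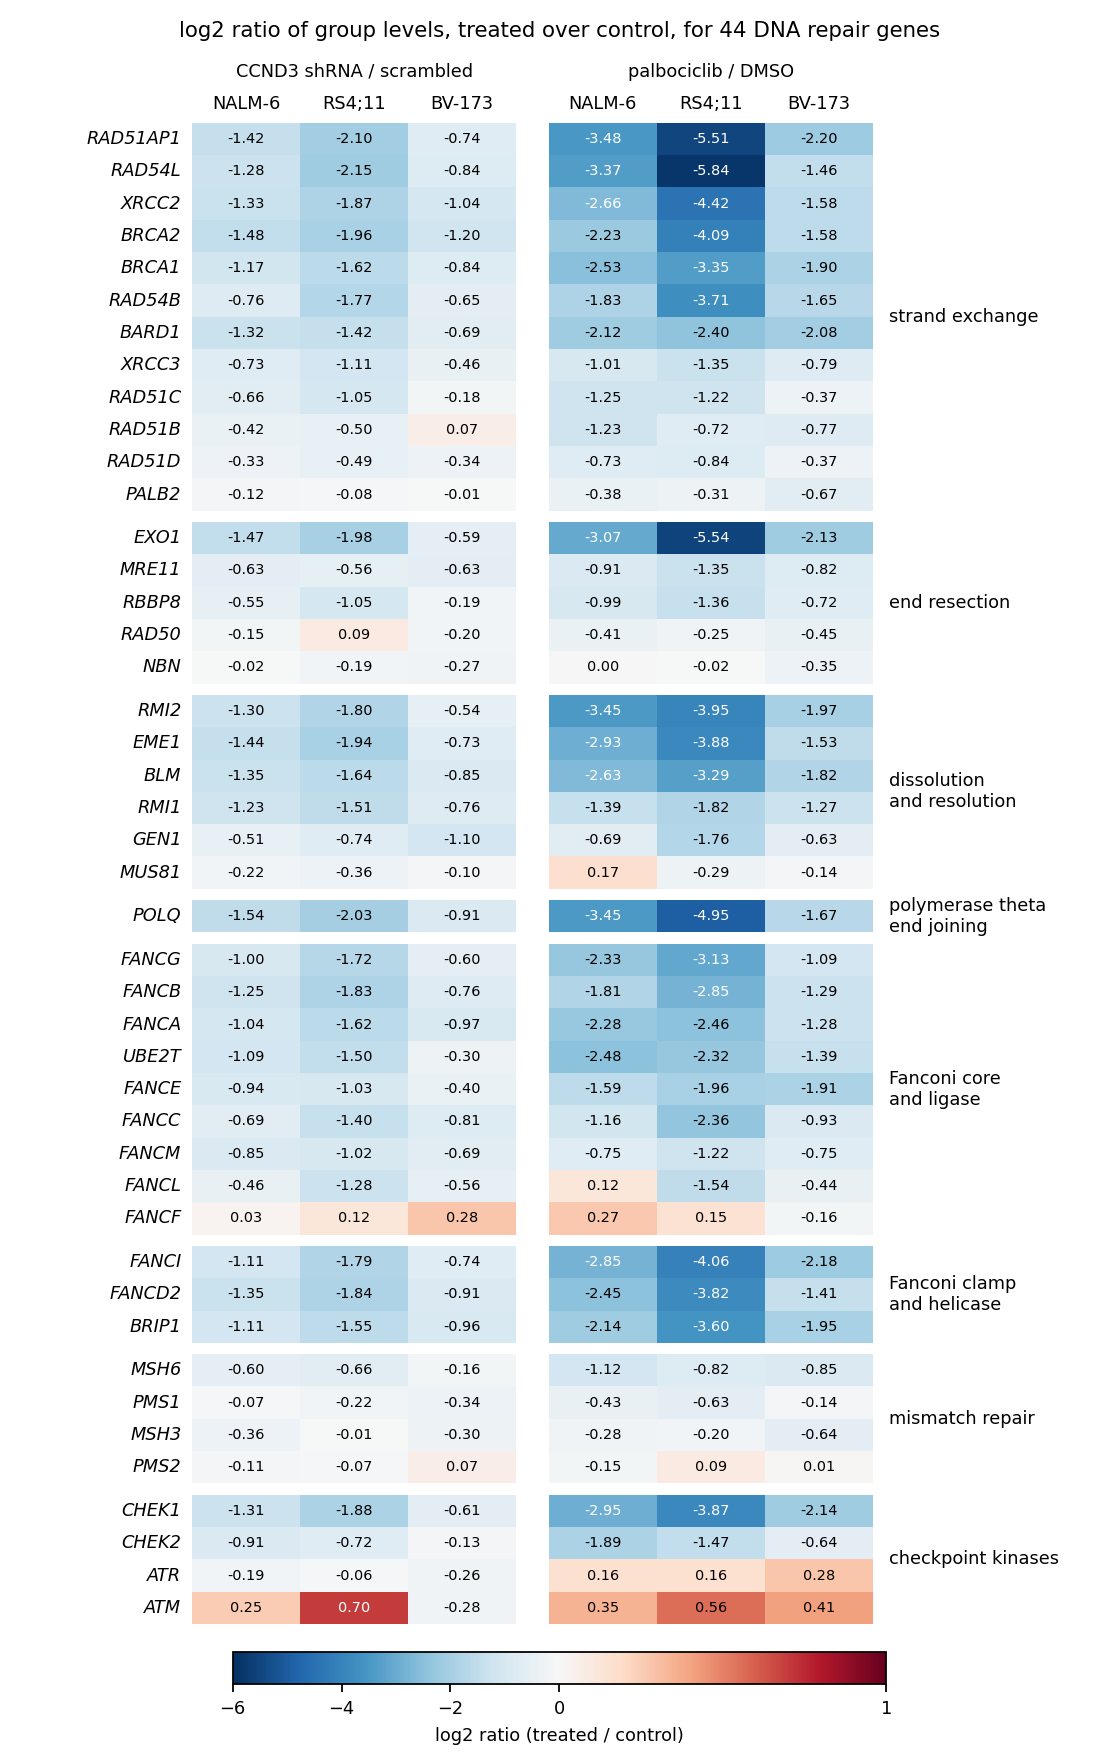
Log2 ratio of the treated to the control level for each of the 44 genes (rows, grouped by role and ordered by the mean of both treatments) in 6 comparisons (columns) with blue for lower and red for higher levels in treated cells and separate color steps below and above 0. The level is at least 1.5-fold lower in all columns for 21 genes, the Fanconi clamp and helicase among them, and in no column for *ATM*, *ATR*, *NBN*, *RAD50*, *MUS81*, *FANCF* and *PMS2*.

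The map of ratios by role shows that the same genes were low in one comparison after another. In all 3 lines, 21 genes were at least 1.5-fold lower with *CCND3* shRNA (1.83% of all genes were) and 31 with palbociclib (6.16%). The 21 genes low in every knockdown were also low in every palbociclib comparison, so 21 of 44 passed the fold in all 6, beside 1.59% of all genes. At a fold of 2 the knockdown count in all 3 lines and the count in all 6 were both 2 (*BRCA2* and *XRCC2*), beside 0.143% and 0.113% of all genes, so these counts depend on the fold. The 21 genes past 1.5-fold were *BRCA1*, *BRCA2*, *BARD1*, *BRIP1*, *RAD51AP1*, *RAD54L*, *RAD54B*, *XRCC2*, *BLM*, *RMI1*, *EME1*, *EXO1*, *POLQ*, *CHEK1*, *FANCA*, *FANCB*, *FANCC*, *FANCD2*, *FANCG*, *FANCI* and *FANCM*. Another 8 passed it in 5 comparisons, and 7 in none (*RAD50*, *NBN*, *ATM*, *ATR*, *FANCF*, *MUS81* and *PMS2*). None was at least 1.5-fold higher in all 3 lines, where 0.609% of all genes were with *CCND3* shRNA, 4.66% with palbociclib and 0.286% in all 6 comparisons.

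Palbociclib gave the larger differences. The median log2 ratio over the 44 genes with *CCND3* shRNA was −0.88 in NALM-6 cells, −1.34 in RS4;11 cells and −0.59 in BV-173 cells. With palbociclib it was −1.49, −1.89 and −1.01, while the 6 medians over all listed genes lay between −0.01 and 0.06. At a fold of 2, the knockdown counts were 20, 28 and 3 genes in the same order. Beside these stood 3.08%, 3.91% and 0.488% of all listed genes. The palbociclib counts were 28, 31 and 22, beside 6.87%, 7.07% and 4.98%. In the BV-173 knockdown, most of the 23 genes at least 1.5-fold lower thus lay between 1.5-fold and 2-fold. Another 21 of the 44 were within 1.5-fold of control there. At least 4-fold lower were 18, 21 and 5 genes with palbociclib and 0, 3 and 0 with *CCND3* shRNA, beside 2.06%, 2.36% and 0.696% and then 0.0389%, 0.326% and 0.00677% of all listed genes. Scaling the columns to the same sum over listed genes moved the median of all genes by −0.10 in the BV-173 knockdown and by 0.13 with palbociclib in NALM-6, and the counts of lower genes there were then 25 and 32. The shares of all genes lower were then 7.76% and 11.5%, and higher 1.96% and 26.4%.

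Added up, the 44 genes held a small part of the control transcriptome, of like size in the 3 lines. They made up 0.324%, 0.297% and 0.315% of all listed levels with scrambled shRNA for NALM-6, RS4;11 and BV-173, and 0.187%, 0.146% and 0.212% with *CCND3* shRNA. With DMSO the shares were 0.287%, 0.312% and 0.326%, and with palbociclib 0.118%, 0.104% and 0.169%. Their summed level in treated cells was 56.9%, 50.4% and 72.2% of control after knockdown and 37.5%, 33.7% and 54.3% after palbociclib, lowest in RS4;11 and highest in BV-173 each time. In bulk RNA, fewer cycling cells and less RNA per cell cannot be told apart. All 6 cycling-cell markers searched (*MKI67*, *TOP2A*, *CCNB1*, *CDK1*, *CCNA2* and *E2F1*) were listed. Their summed level with *CCND3* shRNA and scrambled shRNA was 14979 and 40228 in NALM-6, 8543 and 31336 in RS4;11, and 15222 and 25658 in BV-173. With palbociclib and DMSO it was 5753 and 50258 in NALM-6, 812.9 and 37573 in RS4;11, and 6077 and 28797 in BV-173. The most abundant in the controls was *TOP2A* in NALM-6 and BV-173 and *MKI67* in RS4;11. The markers were lower wherever the repair genes were, and their part in the result was not tested.

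**Figure D2:**
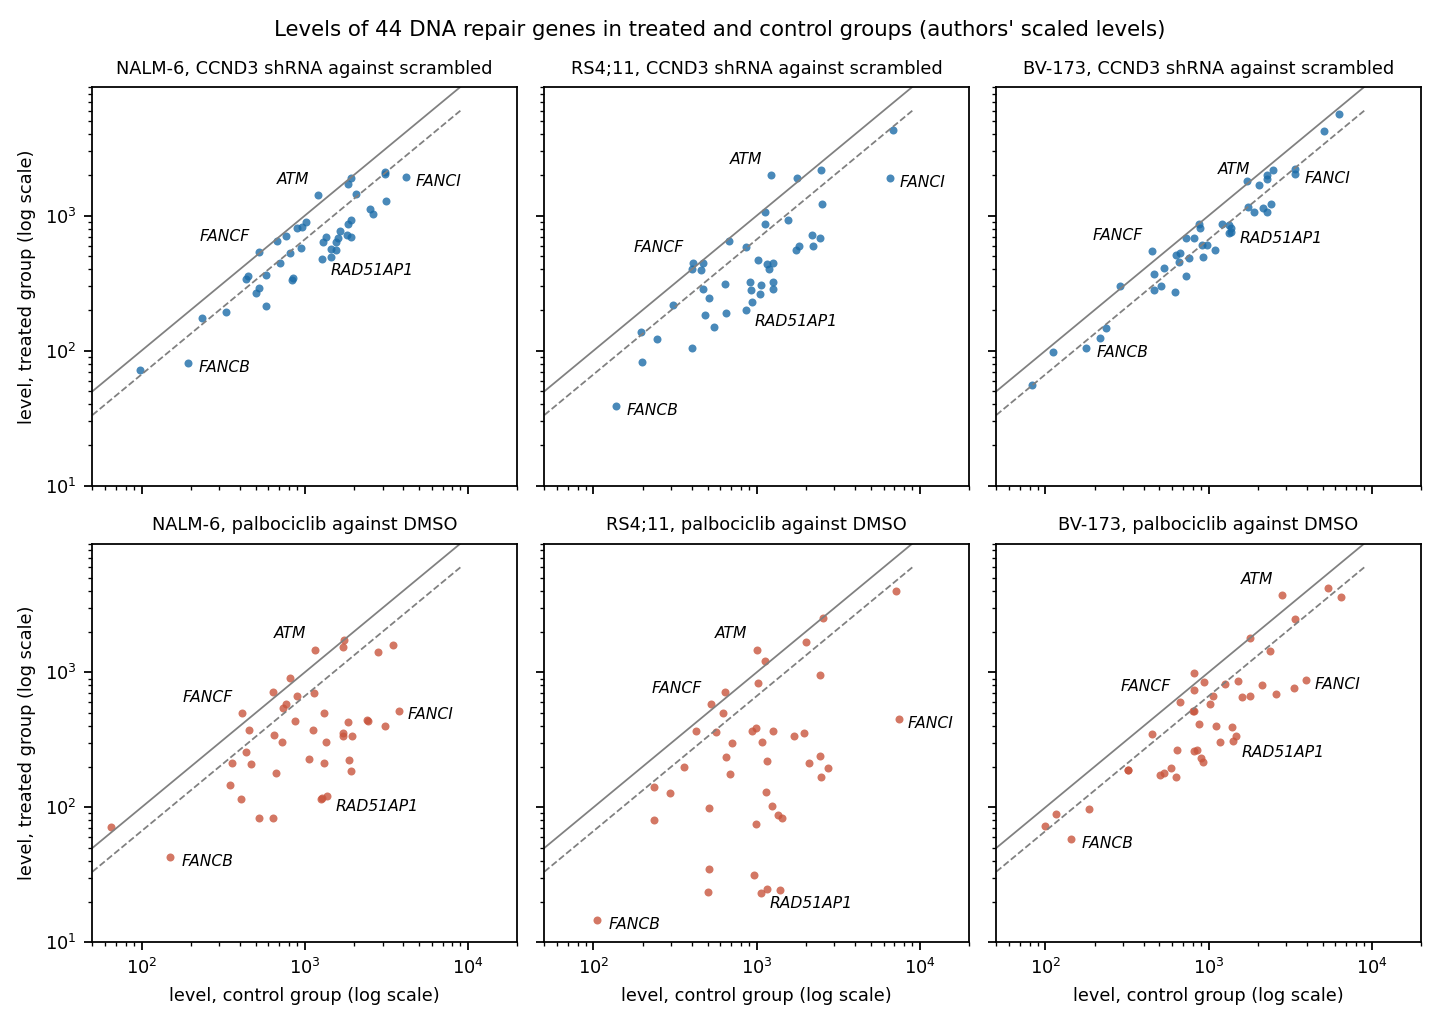
Level in the treated group (vertical, log scale) against level in the control group (horizontal, log scale) for the 44 genes, 1 panel per comparison, in the authors' scaled levels, where the solid line marks equal levels and the dashed line a level 1.5-fold lower in treated cells. Most points lie below the dashed line, farthest for palbociclib in RS4;11, where *RAD54L* stood at 24.4 beside 1399 with DMSO. *ATM* lies on or above the solid line in all panels but BV-173 with *CCND3* shRNA.

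The genes differed widely in how strongly they were expressed. Per 1000 bases of the length each table gives, the median control level of the 44 genes was 308.8, 238.6 and 247.2 with scrambled shRNA in the same order of lines, beside 119.4, 106.6 and 112.2 over all genes. With DMSO it was 280.0, 273.0 and 254.6, beside 104.2, 108.6 and 115.9, and 36 to 39 of the 44 lay above the median of all genes in each control. *UBE2T*, the ubiquitin-conjugating enzyme of the Fanconi pathway, had the highest level per length in 5 of the 6 controls (1969 in NALM-6, 2458 in BV-173 with scrambled shRNA). *MSH6* was highest in RS4;11 with scrambled shRNA, at 1598. *FANCB* and *FANCM*, of the Fanconi core, were among the lowest 5 in every control. In the plot of treated against control levels, genes of high and of low level both lie below the dashed line, *FANCI* and *FANCB* among them.

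The members that were lower together were looked at for shared letters in their promoters. RefSeq promoters (GRCh38.p14, 250 bases before to 50 after each start) were at hand for 40 of the 44 genes, in 57 promoters, since 14 genes had more than 1. None was at hand for *FANCI*, *NBN*, *RAD54B* and *RMI2*. Every share below of the genes listed in all 6 comparisons is over the 10405 of them with a promoter at hand. An E2F-type word (TTTCCCGC, TTTCGCGC, TTTGCCGC or TTTGGCGC, read on both strands) stood in 10 of 40 genes (25.0%), beside 6.35% of the genes listed in all 6 comparisons, and in 11 of 57 promoters (19.3%), beside 4.68% of the 15161 promoters of those genes. It stood in 6 of the 19 genes with a promoter that were lower in all 6 comparisons (31.6%) and in 4 of the other 21 (19.0%), and by promoters in 6 of 26 (23.1%) and 5 of 31 (16.1%). Among the genes lower in at most 1 comparison it stood in 2 of 9 (22.2%) and in 3 of their 11 promoters (27.3%). The *PMS2* promoters overlap and share 1 site, which is counted in each of them. Within the 250 bases before the start alone, 5 of 40 genes held it (12.5%), beside 5.38% of the genes listed in all 6. There it stood in 15.8% of the genes lower in all 6 and in 22.2% of those lower in at most 1. A CHR-type word (TTTGAA or TTCGAA) stood in 6 of 40 genes (15.0%), beside 16.0% of the genes listed in all 6 comparisons, and in 6 of 57 promoters (10.5%), beside 12.3% of the promoters of listed genes. It stood in 3 of the 19 genes lower in all 6 (15.8%) and in 3 of the other 21 (14.3%). CCAAT stood in 21 of 40 (52.5%), beside 42.7% of those genes, and in 26 of 57 promoters (45.6%), beside 34.3% of the promoters of listed genes. It stood in 9 of the 19 genes lower in all 6 (47.4%) and 12 of the other 21 (57.1%), and by promoters in 12 of 26 (46.2%) and 14 of 31 (45.2%). Among the genes lower in at most 1 comparison it stood in 6 of 9 (66.7%) and in 8 of 11 promoters (72.7%). The share with an E2F-type word was thus higher among the repair genes than among the genes listed in all 6 by either count, and none of these shares was tested. No word searched contains another. A match is a description of letters and not of a bound factor.

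The 10 genes with an E2F-type word were *EXO1*, *XRCC2*, *FANCD2*, *FANCA*, *RMI1*, *FANCC*, *GEN1*, *MSH6*, *MSH3* and *PMS2*. Shown are the 5 of them with the lowest mean ratio over both treatments, and *PMS2*, chosen after its values were seen because its levels stood near control with both treatments. The sequences are from RefSeq, on the strand of the gene, 5′ to 3′, end 30 bases after the start, and have the word in capitals. They are *EXO1* (chr1:241848104-241848233, plus strand), *XRCC2* (chr7:152676112-152676241, minus strand), *FANCD2* (chr3:10026337-10026466, plus strand), *FANCA* (chr16:89816618-89816829, minus strand), *RMI1* (chr9:83980705-83980834, plus strand) and *PMS2* (chr7:6009077-6009206, minus strand). The word begins 172 bases before the start in *FANCA* and at most 43 bases from it in the other 5, after the start in *EXO1* and *XRCC2*.
EXO1: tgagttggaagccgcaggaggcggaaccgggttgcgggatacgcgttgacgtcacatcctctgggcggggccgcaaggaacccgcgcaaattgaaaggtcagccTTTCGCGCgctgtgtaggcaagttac
XRCC2: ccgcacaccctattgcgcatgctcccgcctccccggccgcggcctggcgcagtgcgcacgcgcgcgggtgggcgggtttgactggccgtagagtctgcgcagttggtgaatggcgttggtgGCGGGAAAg
FANCD2: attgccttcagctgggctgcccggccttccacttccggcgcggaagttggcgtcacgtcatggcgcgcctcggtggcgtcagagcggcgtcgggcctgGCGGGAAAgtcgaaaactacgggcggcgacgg
FANCA: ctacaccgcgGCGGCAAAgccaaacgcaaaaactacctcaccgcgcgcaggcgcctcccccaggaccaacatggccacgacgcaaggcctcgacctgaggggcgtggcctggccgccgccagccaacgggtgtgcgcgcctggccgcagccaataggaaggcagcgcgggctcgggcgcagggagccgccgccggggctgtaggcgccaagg
RMI1: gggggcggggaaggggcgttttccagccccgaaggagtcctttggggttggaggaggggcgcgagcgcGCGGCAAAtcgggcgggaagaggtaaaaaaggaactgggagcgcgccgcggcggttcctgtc
PMS2: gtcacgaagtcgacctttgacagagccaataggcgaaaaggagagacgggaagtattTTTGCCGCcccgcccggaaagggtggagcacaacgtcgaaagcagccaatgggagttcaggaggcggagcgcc

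Strand exchange is the central step of recombination, in which a resected end invades the sister duplex, and its 12 genes ranged from the lowest of the 44 to near control. Over the 3 lines their median mean ratio was −1.10 with *CCND3* shRNA and −2.30 with palbociclib. In all 3 lines, 7 and 9 of them were at least 1.5-fold lower, beside 1.83% and 6.16% of all genes. *BRCA2*, which loads the recombinase onto single-stranded DNA, had the lowest mean ratio of all 44 genes with *CCND3* shRNA (−1.55). Its knockdown and scrambled levels were 554.2 and 1546 in NALM-6, 325.3 and 1262 in RS4;11, and 272.3 and 625.5 in BV-173. The palbociclib and DMSO levels were 226.8 and 1061 in NALM-6, 83.3 and 1423 in RS4;11, and 197.1 and 588.2 in BV-173. In BV-173 its knockdown ratio of −1.20 was the lowest of the 44, and 26 of 14763 listed genes had a lower ratio. *BRCA1* and *BARD1*, the partners of a ubiquitin ligase that acts before the loading step, had mean ratios of −1.21 and −1.14 with *CCND3* shRNA and −2.59 and −2.20 with palbociclib. *PALB2*, the bridge between BRCA1 and BRCA2, did not follow its partners. In knockdown and scrambled cells the levels were 702.8 and 766.0 in NALM-6, 445.8 and 469.7 in RS4;11, and 869.2 and 876.1 in BV-173, a mean ratio of −0.07. With the inhibitor and with DMSO they were 585.4 and 764.4 in NALM-6, 502.1 and 622.1 in RS4;11, and 671.5 and 1066 in BV-173, and only the BV-173 value passed 1.5-fold.

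*RAD51AP1*, which helps the recombinase invade duplex DNA, had the lowest mean ratio of the 44 with palbociclib (−3.73). Its levels with palbociclib and DMSO were 121.6 and 1362 in NALM-6, 23.3 and 1065 in RS4;11, and 308.1 and 1413 in BV-173. The levels with *CCND3* and scrambled shRNA were 477.2 and 1275 in NALM-6, 199.5 and 856.7 in RS4;11, and 817.7 and 1365 in BV-173, a mean ratio of −1.42. *RAD54L*, a motor protein that remodels the joint between the strands, had its lowest value in RS4;11, where 1.75% of the DMSO level was left. The levels of *RAD54L* with palbociclib and DMSO were 187.0 and 1934 in NALM-6, 24.4 and 1399 in RS4;11, and 401.4 and 1107 in BV-173. The shRNA and its scrambled control gave levels of 644.0 and 1563 in NALM-6, 285.9 and 1265 in RS4;11, and 747.4 and 1342 in BV-173. In RS4;11 it was the lowest of the 44 with both treatments: 21 of 15944 listed genes had a lower ratio after knockdown, and 37 of 15857 after palbociclib. Its relative *RAD54B* had mean ratios of −1.06 and −2.40, though 66.0% of its exon bases are shared with *FSBP* on the same strand, and how reads there were assigned is unknown.

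The recombinase paralogues *RAD51B*, *RAD51C*, *RAD51D*, *XRCC2* and *XRCC3*, which work in shared complexes, were far apart. *XRCC2* levels with *CCND3* shRNA and scrambled shRNA were 334.3 and 841.7 in NALM-6, 150.0 and 547.5 in RS4;11, and 356.7 and 731.5 in BV-173, a mean ratio of −1.41. Palbociclib and DMSO gave levels of 83.2 and 524.9 in NALM-6, 23.6 and 505.5 in RS4;11, and 179.7 and 535.6 in BV-173, a mean of −2.89. The others had mean knockdown ratios between −0.77 (*XRCC3*) and −0.28 (*RAD51B*), and palbociclib means between −1.05 (*XRCC3*) and −0.65 (*RAD51D*). *RAD51D*, *RAD51B* and *RAD51C* were at least 1.5-fold lower in 2, 3 and 4 of the 6 comparisons and *XRCC3* in 5, beside 6 for *XRCC2*. For *XRCC3*, 76.7% of the exon bases lie opposite exons of *KLC1*, and whether reads were counted by strand is not stated in the sources.

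End resection exposes the single strand that recombination needs, and its 5 genes ranged from very low to near control. *EXO1*, the exonuclease of long-range resection and also of mismatch repair, had mean ratios of −1.35 with *CCND3* shRNA and −3.58 with palbociclib. Its knockdown and scrambled levels were 694.0 and 1916 in NALM-6, 264.3 and 1044 in RS4;11, and 1153 and 1734 in BV-173. After palbociclib and DMSO the levels were 223.3 and 1874 in NALM-6, 24.7 and 1150 in RS4;11, and 336.5 and 1472 in BV-173, which in RS4;11 left 2.14%. *MRE11*, *RAD50* and *NBN* form the complex that senses the break, and their levels were unlike. *RAD50* levels with *CCND3* shRNA and scrambled shRNA were 807.0 and 897.9 in NALM-6, 1888 and 1774 in RS4;11, and 2175 and 2499 in BV-173, a mean ratio of −0.09. In palbociclib and DMSO cells the levels were 671.2 and 892.5 in NALM-6, 1675 and 1998 in RS4;11, and 2494 and 3396 in BV-173, a mean of −0.37. *NBN* levels were as near to control. In knockdown and scrambled cells the levels were 1890 and 1915 in NALM-6, 2175 and 2480 in RS4;11, and 4224 and 5102 in BV-173. The palbociclib and DMSO levels were 1747 and 1748 in NALM-6, 2516 and 2545 in RS4;11, and 4250 and 5408 in BV-173, so *NBN* was within 1.5-fold of control in all 6 comparisons. *MRE11* had mean ratios of −0.61 and −1.03 and passed the fold in 5 comparisons, and *RBBP8*, which activates the nuclease of the complex, had −0.60 and −1.02 and passed it in 4. The median over the 5 genes was −0.60 with *CCND3* shRNA and −1.02 with palbociclib.

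Joint molecules are undone by dissolution, carried out by the BLM helicase with RMI1 and RMI2, or cut by the nucleases MUS81-EME1 and GEN1. The 6 genes had a median mean ratio of −1.19 with *CCND3* shRNA and −2.04 with palbociclib. At least 1.5-fold lower in all 3 lines were 3 and 5 of them, beside 1.83% and 6.16% of all genes. *RMI2* had the fifth of the lowest palbociclib means (−3.12). Its levels with palbociclib and DMSO were 115.0 and 1253 in NALM-6, 87.8 and 1352 in RS4;11, and 230.9 and 903.2 in BV-173. The levels with *CCND3* and scrambled shRNA were 342.9 and 845.2 in NALM-6, 304.8 and 1059 in RS4;11, and 452.2 and 656.4 in BV-173. *BLM* had mean ratios of −1.28 and −2.58, and *RMI1* of −1.16 and −1.49. The subunits of the MUS81-EME1 nuclease parted: *EME1*, the regulatory subunit, had means of −1.37 and −2.78, while *MUS81*, the catalytic subunit, stayed near control. *MUS81* levels with *CCND3* shRNA and scrambled shRNA were 829.4 and 968.3 in NALM-6, 870.9 and 1119 in RS4;11, and 680.9 and 729.3 in BV-173. With the inhibitor and with DMSO they were 721.1 and 641.2 in NALM-6, 831.2 and 1017 in RS4;11, and 848.9 and 933.5 in BV-173, a mean ratio of −0.09. *GEN1* had means of −0.78 and −1.03, and was the only one of the 6 with its lowest knockdown ratio in BV-173 (−1.10).

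*POLQ*, the polymerase that joins ends at short stretches of homology when recombination is lacking, had the second lowest mean with *CCND3* shRNA (−1.49) and the fourth lowest with palbociclib (−3.35). The shRNA and its scrambled control gave levels of 496.2 and 1447 in NALM-6, 228.4 and 931.3 in RS4;11, and 493.3 and 928.7 in BV-173. Palbociclib and DMSO gave levels of 116.4 and 1271 in NALM-6, 31.3 and 965.8 in RS4;11, and 266.2 and 845.1 in BV-173. The gene of this backup route was thus low beside the genes of recombination in all 6 comparisons.

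The Fanconi core complex and its ubiquitin-conjugating enzyme were mostly lower, and *FANCF* passed 1.5-fold in no comparison. The 9 genes had a median mean ratio of −0.96 with *CCND3* shRNA and −1.82 with palbociclib. Of them, 5 and 7 were at least 1.5-fold lower in all 3 lines, beside 1.83% and 6.16% of all genes. *FANCB* was lowest with *CCND3* shRNA (−1.28) and *FANCG* with palbociclib (−2.18), both subunits of the complex. *FANCA*, *FANCC* and *FANCE*, also subunits, had knockdown means of −1.21, −0.97 and −0.79 and palbociclib means of −2.01, −1.48 and −1.82. *FANCM*, the motor that brings the complex to DNA, had nearly the same mean with both treatments, −0.86 and −0.90. *UBE2T* had means of −0.96 and −2.06. In the BV-173 knockdown *UBE2T* (−0.30) and *FANCE* (−0.40) were within 1.5-fold of control. *FANCL*, the ubiquitin ligase that UBE2T serves, passed 1.5-fold in RS4;11 alone. Its knockdown and scrambled levels were 71.5 and 98.5 in NALM-6, 81.9 and 198.7 in RS4;11, and 56.1 and 82.9 in BV-173. After palbociclib and DMSO the levels were 71.2 and 65.4 in NALM-6, 80.2 and 233.5 in RS4;11, and 73.2 and 99.1 in BV-173, among the lowest levels of the 44 genes. *FANCF*, an adaptor of the core complex encoded by a single exon, was within 1.5-fold of control throughout. In knockdown and scrambled cells the levels were 537.7 and 525.9 in NALM-6, 444.3 and 408.1 in RS4;11, and 544.7 and 447.6 in BV-173. In palbociclib and DMSO cells the levels were 497.9 and 413.7 in NALM-6, 581.7 and 523.1 in RS4;11, and 598.8 and 667.6 in BV-173, a mean ratio of 0.09.

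*FANCD2* and *FANCI*, the clamp that is ubiquitinated at a crosslink, and *BRIP1*, a helicase bound to BRCA1, were at least 1.5-fold lower in all 6 comparisons. Their means with *CCND3* shRNA were −1.37, −1.21 and −1.21, and with palbociclib −2.56, −3.03 and −2.56. The summed level of the 3 genes in RS4;11 was 745.3 with palbociclib beside 11456 with DMSO, or 6.51%, the lowest of the 6 comparisons. It was highest in the BV-173 knockdown, at 56.4%. *FANCI* supplied most of the sum in RS4;11, with 448.2 and 7457.

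The mismatch repair genes had the medians over lines closest to 0 of the roles, but with palbociclib in BV-173 the checkpoint kinases were closer (−0.18 beside −0.39). The 4 genes had a median mean ratio of −0.22 with *CCND3* shRNA and −0.39 with palbociclib. Of them, 0 and 1 were at least 1.5-fold lower in all 3 lines, beside 1.83% and 6.16% of all genes. *MSH6*, which recognizes single mismatches, was the lowest of them, with means of −0.47 and −0.93, and was lower in 5 comparisons. *MSH3*, which recognizes larger loops, had −0.22 and −0.37, and *PMS1*, a MutL homologue, −0.21 and −0.40, each past the fold in 1 comparison. *PMS2*, the nuclease subunit, was nearest to control. The levels with *CCND3* and scrambled shRNA were 1714 and 1855 in NALM-6, 1068 and 1120 in RS4;11, and 1816 and 1726 in BV-173. The palbociclib and DMSO levels were 1544 and 1715 in NALM-6, 1206 and 1133 in RS4;11, and 1808 and 1801 in BV-173, so no ratio was farther from 0 than −0.15. *PMS2*, *CHEK2*, *BRCA1* and *FANCD2* have near copies elsewhere in the genome, and how their reads were assigned is unknown.

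By mean ratio the checkpoint kinases split into the sensors and their targets. *CHEK1*, the kinase that ATR activates, was lower in all 6 comparisons, with means of −1.26 and −2.99. *CHEK2*, the target of ATM, had −0.59 and −1.33. In the BV-173 knockdown *CHEK2* (−0.13) was within 1.5-fold of control and lay above both *ATR* (−0.26) and *ATM* (−0.28). *ATM*, the kinase that responds to double-strand breaks, had the highest mean ratio of the 44 genes with both treatments (0.23 and 0.44). The shRNA and its scrambled control gave levels of 1432 and 1205 in NALM-6, 1996 and 1225 in RS4;11, and 1681 and 2035 in BV-173. With the inhibitor and with DMSO they were 1476 and 1162 in NALM-6, 1477 and 998.7 in RS4;11, and 3725 and 2813 in BV-173. The level was thus higher than control in 5 of 6 comparisons, by 1.5-fold or more in the RS4;11 knockdown (0.70), where 14824 of 15944 listed genes had a lower ratio, and lower in the BV-173 knockdown (−0.28). *ATR*, the kinase that responds to single-stranded DNA, differed in sign between the treatments. Its knockdown and scrambled levels were 899.1 and 1024 in NALM-6, 652.1 and 677.8 in RS4;11, and 680.2 and 815.1 in BV-173. Palbociclib and DMSO gave levels of 909.1 and 811.7 in NALM-6, 712.3 and 636.1 in RS4;11, and 989.5 and 814.9 in BV-173, slightly higher than control in each line. None of the *ATR* values reached 1.5-fold.

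**Figure D3:**
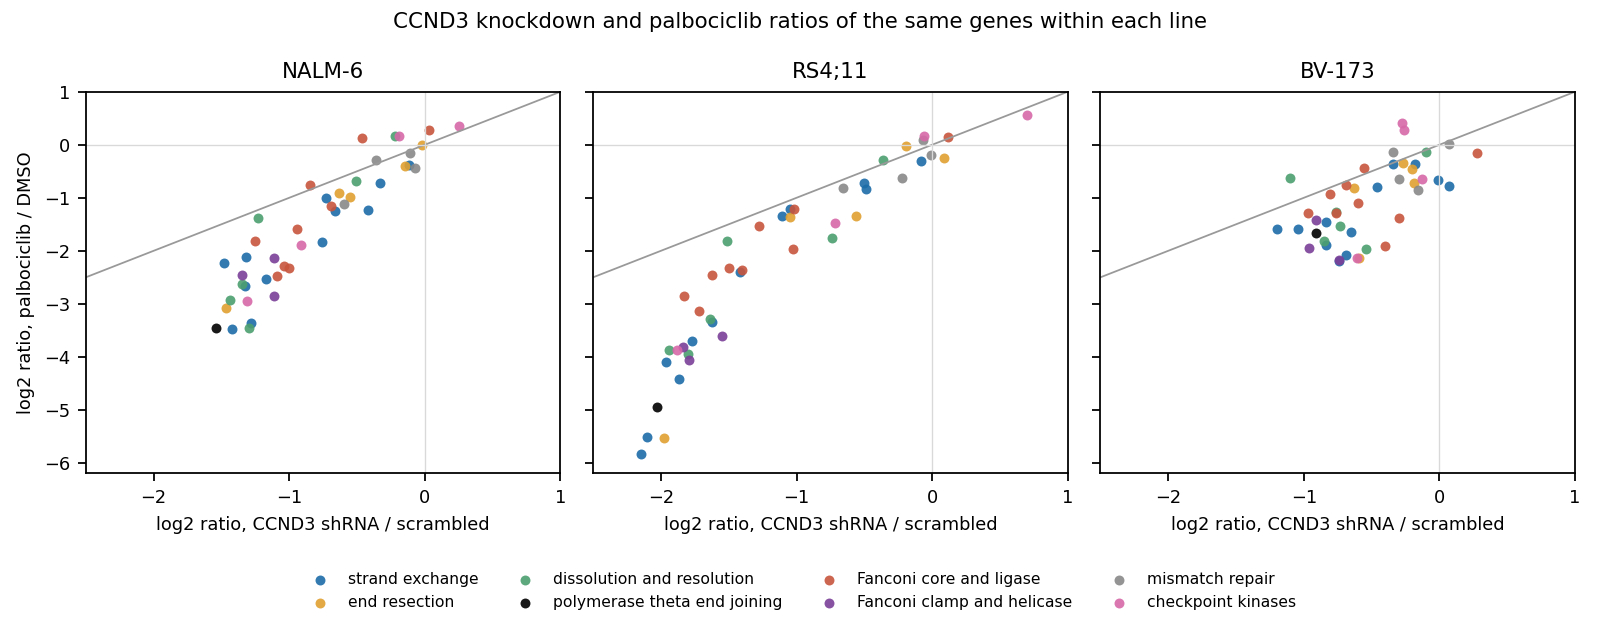
Log2 ratio with palbociclib (vertical) against log2 ratio with *CCND3* shRNA (horizontal) for the 44 genes, 1 panel per line, colored by role, where the axes have different ranges and the grey diagonal marks equal ratios. Points run below the diagonal, for 36, 39 and 39 of 44 genes in the panels from left to right.

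Set against each other within a line, the ratios of the 2 treatments rose and fell together across genes, least closely in BV-173, and differed in size. The palbociclib ratio was lower than the knockdown ratio in all 3 lines for 33 of 44 genes (75.0%), beside 24.7% of all genes, and the reverse held in all 3 lines for *ATR* only. The median difference, knockdown less palbociclib, was 0.66 over the 44 genes and −0.01 over all genes. Within the lines, in the same order as above, it was 0.62, 0.83 and 0.51. By this difference the genes at the top were *RAD51AP1* (2.31), *EXO1* (2.24), *RAD54L* (2.14), *RMI2* (1.91) and *POLQ* (1.86), the 5 genes that were lowest with palbociclib. At the bottom were *ATR* (−0.37), *ATM* (−0.21), *FANCL* (−0.15), *MUS81* (−0.14) and *NBN* (−0.04). Over the 44 genes, the knockdown and palbociclib ratios had a Pearson r of 0.92 in NALM-6 cells, 0.93 in RS4;11 cells and 0.63 in BV-173 cells, beside 0.63, 0.75 and 0.45 over all genes listed in all 6 comparisons. These are descriptions across genes, which are not independent replicates. The compared groups came from the same line but from separate controls, and the treatments differed in time, so a difference between agents and a difference in time cannot be told apart.

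The lines stood in the same order with both treatments. With *CCND3* shRNA, 29 of 44 genes (65.9%) had their lowest ratio in RS4;11 and their highest in BV-173, beside 21.9% of all genes. With palbociclib 28 of 44 (63.6%) did, beside 17.3%. This order was not particular to the repair genes. For RS4;11, NALM-6 and BV-173, the summed level of the replication genes described below was 30.9%, 45.8% and 68.5% of control after knockdown. After palbociclib it was 14.5%, 23.2% and 38.6%. The pathway companions had the same order, and the base excision genes had it after knockdown only. The end joining genes did not, at 69.8%, 86.4% and 74.5% after knockdown. The *CCND3* level left after knockdown was lowest in RS4;11 (20.7%) and highest in BV-173 (31.1%). With palbociclib it was highest in RS4;11 (81.8%) and lowest in BV-173 (76.0%). Whether the *CCND3* level is related to the order of the lines was not tested. *XRCC2*, *BRCA2* and *RAD54L* show the order plainly, and the ratios of *XRCC2* with palbociclib were −4.42, −2.66 and −1.58 from the lowest line to the highest. The SD over the 3 lines, which are not replicates of each other, was 1.44 for *XRCC2* with palbociclib and 2.19 for *RAD54L*, against 0.17 for *BARD1* and 0.20 for *FANCE*. After knockdown the SDs of *XRCC2*, *RAD54L*, *BARD1* and *FANCE* were 0.42, 0.66, 0.40 and 0.34, so *XRCC2* and *BARD1* were then alike. *BARD1* and *FANCE* were chosen after the values were seen.

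**Figure D4:**
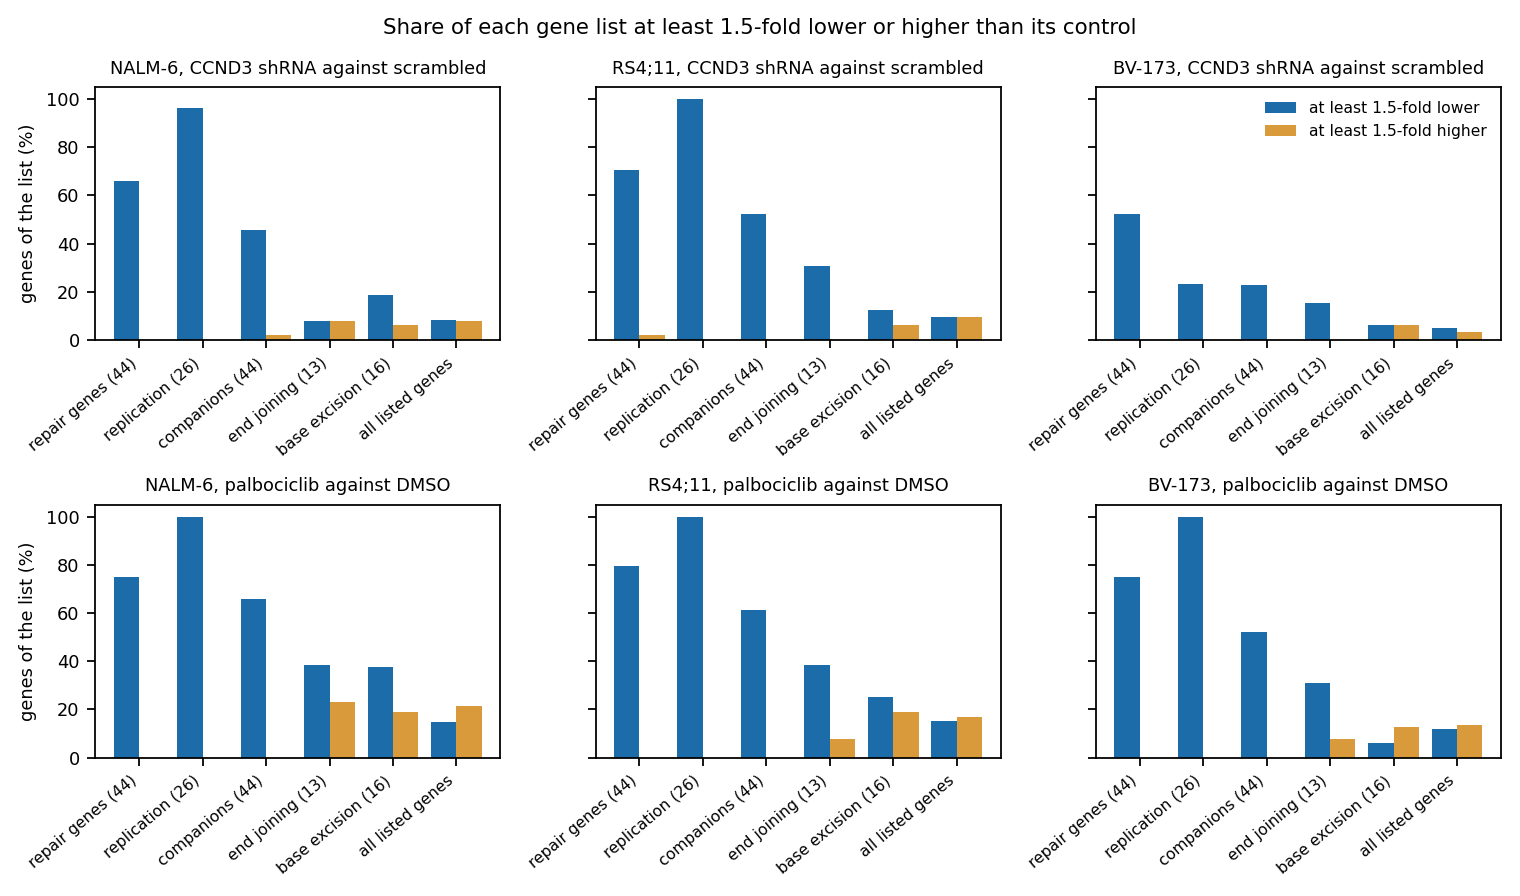
Percent of each gene list (bars from 0) at least 1.5-fold lower (blue) or higher (orange) than its control, 1 panel per comparison, where the number of listed genes stands in brackets and all listed genes are the last pair of bars. By the share lower, the repair genes lie between the replication genes and their pathway companions in every panel but BV-173 with *CCND3* shRNA. There 52.3% of the repair genes and 23.1% of the replication genes were lower.

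Other genes of the same pathways were also lower. All comparisons between lists here are of counts and were not tested. Of all listed genes, 8.47%, 9.72% and 4.78% were at least 1.5-fold lower with *CCND3* shRNA and 14.9%, 15.0% and 11.9% with palbociclib. Of 44 listed companions (among them the replication protein A subunits, the checkpoint clamp and its loaders, and cofactors of BRCA1 and of the Fanconi proteins), 20, 23 and 10 were at least 1.5-fold lower with *CCND3* shRNA for NALM-6, RS4;11 and BV-173, and 29, 27 and 23 with palbociclib. The only companion at least 1.5-fold higher was *HUS1*, of the checkpoint clamp, in NALM-6 with *CCND3* shRNA (0.79). Their median mean ratio was −0.47 with *CCND3* shRNA and −0.75 with palbociclib. The lowest knockdown means were those of *CLSPN* (−1.53), the adaptor through which ATR reaches CHEK1, *PSMC3IP* (−1.53), a cofactor of strand exchange, and *FIGNL1* (−1.50). With palbociclib they were *MND1* (−3.37), the partner of PSMC3IP, *CLSPN* (−3.34) and *PSMC3IP* (−3.00). The highest were *HUS1* (0.42), *ABRAXAS1* (0.33) and *SWI5* (0.22) after knockdown, and *BABAM2* (0.42), *HELQ* (0.29) and *FAAP100* (0.25) after palbociclib. *ABRAXAS1* and *BABAM2* encode parts of a BRCA1-bound complex.

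Most of the replication licensing and fork genes were lower in 5 of the 6 comparisons. Of the 26 listed, the counts at least 1.5-fold lower were 25, 26 and 6 with *CCND3* shRNA for NALM-6, RS4;11 and BV-173, and all 26 in each line with palbociclib. Their median mean ratio was −1.16 and −2.24, with *CDC45* (−1.42), *CDC6* (−1.41) and *GINS2* (−1.40) lowest after knockdown and *CDT1* (−3.96), *MCM10* (−3.72) and *CDC45* (−3.45) after palbociclib. The highest were *GINS3* (−0.32), *PRIM2* (−0.77) and *POLA1* (−0.87) after knockdown, and *POLA1* (−1.21), *PRIM2* (−1.32) and *POLE* (−1.42) after palbociclib, so no gene of this list stood near its DMSO level. In the BV-173 knockdown their median ratio was −0.52, beside −0.59 for the 44 repair genes. Several lay just short of 1.5-fold there, and with the columns scaled to the same sum, an alternative chosen after seeing the data, 17 of the 26 were lower instead of 6. End joining by the classical route, the pathway of immunoglobulin gene rearrangement, stood nearer to control than the replication list by its median mean ratios. Of 13 listed genes, 1, 4 and 2 were at least 1.5-fold lower with *CCND3* shRNA and 5, 5 and 4 with palbociclib, and 1, 0 and 0 and then 3, 1 and 1 were higher, with median means of −0.24 and −0.48. With *CCND3* shRNA the shares lower were 7.69%, 30.8% and 15.4%, beside 8.47%, 9.72% and 4.78% of all listed genes. With palbociclib they were 38.5%, 38.5% and 30.8%, beside 14.9%, 15.0% and 11.9%. Only in the NALM-6 knockdown was the share lower not above that of all listed genes. The shares higher were 7.69%, 0% and 0% after knockdown, beside 7.82%, 9.73% and 3.32%. After palbociclib they were 23.1%, 7.69% and 7.69%, beside 21.4%, 16.7% and 13.6%. *RIF1*, which shields ends from resection, was lowest with both treatments (−0.71 and −1.44), followed by *PRKDC* (−0.66) and *PAXX* (−0.51) after knockdown and *PAXX* (−0.92) and *XRCC4* (−0.83) after palbociclib. The ligase gene *LIG4* (0.33 and 0.92) and the polymerase genes *POLL* (0.42 and 0.60) and *POLM* (0.21 and 0.57) had the highest means, but *POLL* levels were low in NALM-6 (4.88 to 11.4) and in BV-173 (12.6 to 27.1). Base excision repair, which replaces single damaged bases, had 3, 2 and 1 of 16 genes lower with *CCND3* shRNA, and 6, 4 and 1 with palbociclib, with 1, 1 and 1 and then 3, 3 and 2 higher. The shares lower were 18.8%, 12.5% and 6.25% and then 37.5%, 25.0% and 6.25%, beside 8.47%, 9.72% and 4.78% and then 14.9%, 15.0% and 11.9% of all listed genes. Higher with palbociclib were 18.8%, 18.8% and 12.5%, beside 21.4%, 16.7% and 13.6%. Its median means were 0.08 and −0.21. The glycosylase genes lay at both ends: *NEIL3* was lowest (−1.38 and −4.67), followed by *UNG* (−0.77 and −0.73), with *XRCC1* (−0.46) next after knockdown and *MUTYH* (−0.63) after palbociclib. *MPG* (0.65 and 0.64), *NEIL1* (0.42 and 1.65) and *NEIL2* (0.32 and 0.83) were highest.

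**Figure D5:**
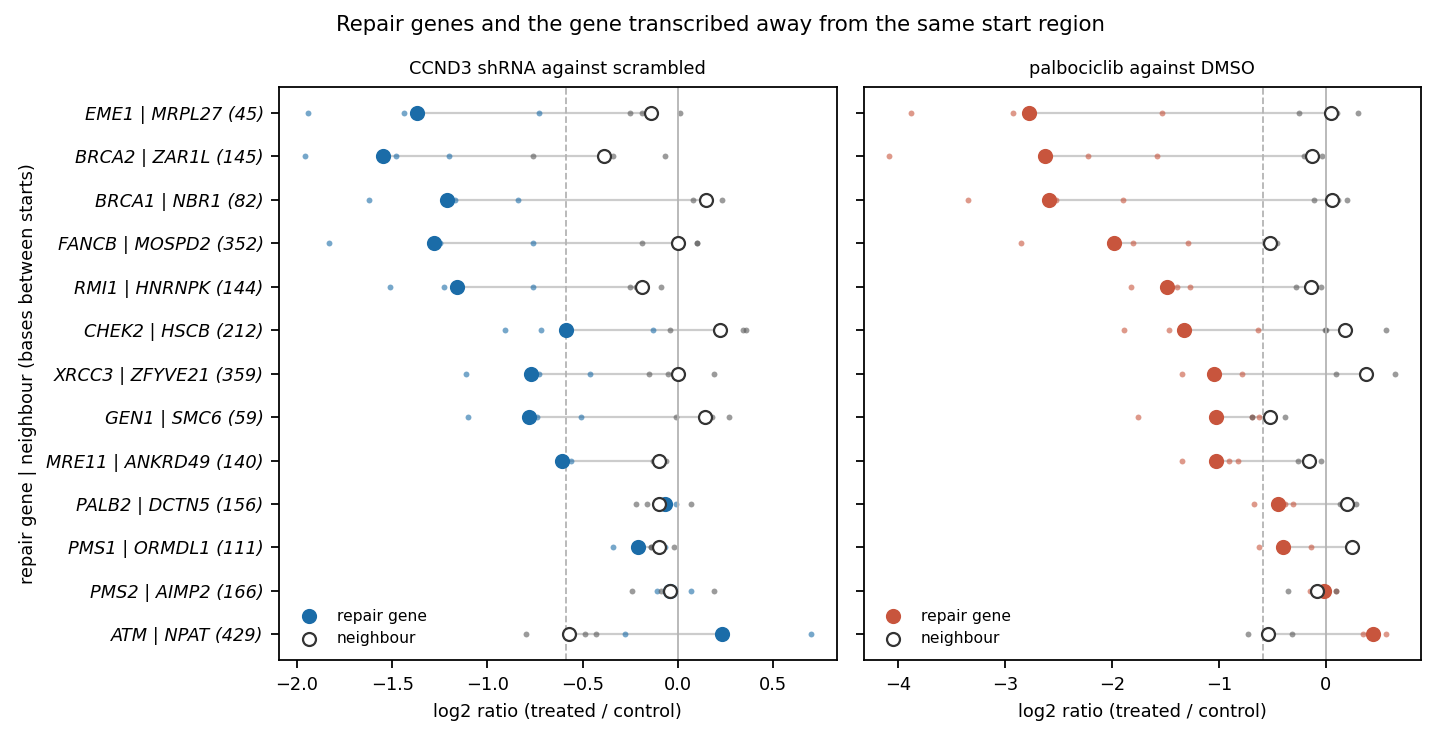
Log2 ratio (horizontal) of 13 repair genes (filled) and of the gene transcribed away from the same start region (open), with the bases between the starts in brackets, where large points are means over 3 lines, small points single lines, the solid line marks 0 and the dashed line a level 1.5-fold lower. In the upper 9 pairs the repair gene lies to the left of its neighbour with both treatments, while *ATM* lies to the right of *NPAT*.

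Some of these genes share a start region with a gene transcribed the other way. Among the 44, 13 had such a neighbour within 1000 bases that was listed in all 6 comparisons, with starts 45 to 429 bases apart in RefSeq. Over the 78 values of the 13 pairs, the repair gene was at least 1.5-fold lower in 52 and the neighbour in 4 (5.13%), beside 4.78% to 15.0% of all listed genes in a comparison. The neighbour was higher in 1, *ZFYVE21* with palbociclib in BV-173 (0.65), beside 3.32% to 21.4% of all listed genes in a comparison. The 4 lower values were *ZAR1L*, *SMC6* and, once with each treatment, *NPAT*, and *MOSPD2*, the neighbour of *FANCB*, came near with palbociclib (a mean of −0.52). *EME1* and *MRPL27*, a gene of the mitochondrial ribosome, start 45 bases apart, and had mean ratios of −1.37 and −0.14 with *CCND3* shRNA and −2.78 and 0.05 with palbociclib. *BRCA1* has promoters at separate starts, and at the farther upstream one *NBR1*, an autophagy receptor gene, starts 82 bases away. At the other the neighbour is *NBR2*, 193 bases away and not listed. *BRCA1* and *NBR1* had −1.21 and 0.15 with *CCND3* shRNA and −2.59 and 0.06 with palbociclib. *RMI1* and *HNRNPK*, 144 bases apart, had −1.16 and −0.19 after knockdown and −1.49 and −0.14 after palbociclib. *BRCA2* is paired with *ZAR1L*, but that gene stood at levels of 0.385 to 1.22, where ratios lie close to 0 for most genes. *SMC6*, the neighbour of *GEN1*, had means of 0.14 and −0.52, beside −0.78 and −1.03 for *GEN1*. The pair of *ATM* ran the other way. *NPAT*, a gene for histone gene transcription at the entry into S phase, starts 429 bases from *ATM* and had ratios of −0.49, −0.43 and −0.80 with *CCND3* shRNA and −0.58, −0.73 and −0.32 with palbociclib in the same order of lines, while *ATM* was above control in 5 of the 6. *PALB2*, *PMS1* and *PMS2* and their neighbours *DCTN5*, *ORMDL1* and *AIMP2* all had means between −0.45 and 0.24. The pairs described singly were chosen after their values were seen.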

How the data were processed

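The 12 groups of cell line and treatment were taken from the labels. Per the submitters' notes, the authors used SOAPnuke for filtering, Bowtie2 for mapping against hg38, RSEM for gene levels and DESeq2 for the contrast of each pair of groups (no versions given). The authors' deposited tables hold, for each of 6 comparisons, a signal per group, that is 1 level for the treated and 1 for the control group, scaled within the pair. They also hold 4 columns of the authors' own comparison per gene (a log2 fold change, a p-value, an adjusted p-value and a direction), which were not used. There is no value per sample, and the depth per sample is unknown.

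The log2 ratio of treated to control was computed for every listed gene with no filter and no pseudocount, and genes at least 1.5-fold lower or higher were counted. No test could be run. Members and lists were chosen with earlier results of these data known. Levels per length used the length given in each table. Promoters and starts came from RefSeq (GRCh38.p14), and since the gene table holds no strand, neighbours within 1000 bases were found from the promoter table. Shared exon bases came from GENCODE 44. All 44 genes matched RefSeq by symbol and identifier.

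Every member was accounted for by role. Given in all 12 groups were *CCND3*, the 5 members with the lowest and the 5 with the highest mean ratio per treatment, the 5 with the largest difference in each direction between treatments, and each member at least 1.5-fold higher in any comparison. Summed levels of the precursor B markers are not reported here. For each other list the 3 lowest and the 3 highest mean ratios were named. The alternatives were a pseudocount of 1, a mean level of at least 10, scaling by the column sum or by the median ratio, a stricter fold (2) and a looser fold (5/4), leaving out each line, and a window of 250 bases before the start. The alternative without 6 members of uncertain reads (*PMS2*, *CHEK2*, *BRCA1*, *FANCD2*, *RAD54B* and *XRCC3*) and the scaling of the replication list by the column sum were chosen after seeing the data. Scripts were tested on simulated data and run with numpy 2.4.6, matplotlib 3.10.9 and pandas 2.3.3 under Python 3.11.15.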

Additional observations from a re-analysis of the deposited data

How the results depend on the processing

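Over 33 results, 138 alternatives were run. In 129 any count stayed within 1.5 times its value, and any median moved by less than the SD of the medians of the 3 lines. No median changed sign, and a count has no direction that could reverse. The alternative with a mean level of at least 10 could change no result, since no member lay below that level. With alternatives other than the fold and over the same members, counts of lower repair genes moved by −1 to 2. Without the 6 members of uncertain reads, which leaves 38 (chosen after seeing the data), they moved by −5 to −3. Medians within a comparison moved by at most 0.17, and medians over lines by −0.23 to 0.19 when a line was left out.

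At a fold of 2, the count of lower genes in the BV-173 knockdown was 3, that in all 3 lines with *CCND3* shRNA was 2, that in all 6 comparisons was 2, and that of higher genes in the RS4;11 knockdown was 0. At a fold of 5/4, 1 gene was higher with palbociclib in each of the 3 lines. With 250 bases before the start only, 5 genes held an E2F-type word. With columns scaled to the same sum (chosen after seeing the data), 17 of 26 replication genes were lower in the BV-173 knockdown instead of 6. A stricter or looser fold and a shorter window change such counts by construction.

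No paired analysis was possible because the tables hold 1 level per group and no value per sample. For the same reason leaving out replicates could not be run, and the depth per sample and the spread between replicates are unknown.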
